A study of Sus scrofa with 12 samples.

Results

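The extracellular matrix genes described here are the pig's collagens, laminins, matrix metalloproteinases (MMPs) and tissue inhibitors of metalloproteinases (TIMPs). They were picked by gene symbol alone, as every gene whose symbol in the array's annotation is that of a collagen chain, a laminin chain, an MMP or a TIMP. This gave 69 genes with 159 probe sets, of 13524 genes and 26426 probe sets that carry a symbol. Where a gene has several probe sets, the brightest by mean over the 12 arrays stands for it. In 66 genes, of 12164 over the whole array, that mean lay above a filter that leaves out the dimmest 30% of probe sets. The 66 genes comprise 10 fibrillar collagens, 9 collagens of basement membranes, 10 laminin chains, 19 other collagens, 14 MMPs and 4 TIMPs.

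The study measured RNA of the ileal mucosa, the inner layer of the last part of the small intestine, in 12 pigs aged 140 days. The high feed efficiency group held 6 pigs and the low feed efficiency group held 6 pigs, with 3 males and 3 females in each. High feed efficiency means more growth per unit of feed. The labels give no breed, diet or value of the trait, and no allele or agent, and every array has a pig identifier of its own. The array values are on a log2 scale, so that a difference of 1 is a doubling, and values of different probe sets were not set against each other.

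Collagens are trimers of 3 chains that often come from different genes. Fibrillar collagens form the load-bearing fibres of the connective tissue below the epithelium, and fibroblasts and muscle cells make most of them. Laminins and type IV collagen build separate networks that join in the basement membrane, the sheet on which epithelial cells, vessels and muscle cells rest. MMPs are zinc enzymes that cut these proteins and many others, and TIMPs are proteins that block MMPs. In the gut the lamina propria is remodelled as the epithelium renews itself, and several MMPs come from fibroblasts, macrophages and epithelial cells.

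Arrays correlated with each other at r of 0.852 to 0.973 over all probe sets, with a median of 0.948. The array of high feed efficiency pig 1 differed most, at a median r of 0.899 with the others, and its mean deviation over 9 enterocyte markers was -1.93 on the log2 scale. Low feed efficiency pig 4 stood apart in B cell markers, with a mean deviation of -3.06. Among the 66 genes, high feed efficiency pig 3 held the highest value of 16 genes and the lowest of 9, low feed efficiency pig 2 the highest of 6 and the lowest of 16, and low feed efficiency pig 4 the highest of 15. Values without these pigs are given for many results that rest on them, but not for all. For feed efficiency they are not given for LAMB2, COL16A1 and TIMP3, where high feed efficiency pig 3 was highest. For sex they are missing for TIMP1, TIMP2 and MMP2, lowest in low feed efficiency pig 2. They are also missing for MMP28, lowest in high feed efficiency pig 1. Of the marker genes that have a probe set, 9 of 9 enterocyte, 8 of 8 fibroblast and 9 of 9 smooth muscle genes lay above the filter. So did 7 of 7 macrophage, 10 of 10 endothelial and 7 of 7 B cell genes. The count was 8 of 9 for neutrophils, without S100A8, and 5 of 7 for enteric glia and neurons, without ELAVL4 and SNAP25. The filter leaves out only the dimmest probe sets, so passing it does not by itself show that a cell type is present. In tissue RNA, fewer cells of a type and less RNA per cell cannot be told apart.

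Of the 66 matrix genes, 0 differed between high and low feed efficiency in limma's test at an adjusted p of 0.05, where 0% of all 33405 probe sets passed. The lowest adjusted p among them was 0.999. At an unadjusted p of 0.05, 0 of 66 genes passed, against 2.19% of all 12164 genes. The groups overlapped in 66 of 66 genes, while 0.0575% of all genes had groups that do not overlap. The 66 genes were higher in 42 and lower in 24, or 63.6% higher, against 47.5% of all genes. The median difference, high minus low, was 0.04, against -0.01 over all genes. The split depended on single pigs. It was 34 to 32 without high feed efficiency pig 3 and 32 to 34 without low feed efficiency pig 2. It was 47 to 19 without high feed efficiency pig 1 and 43 to 23 without low feed efficiency pig 4. The 95% interval of the difference lay within 1 log2 unit in both directions for 65 of 66 genes, MMP12 being the exception, and within 0.5 for 38.

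**Figure D1:**
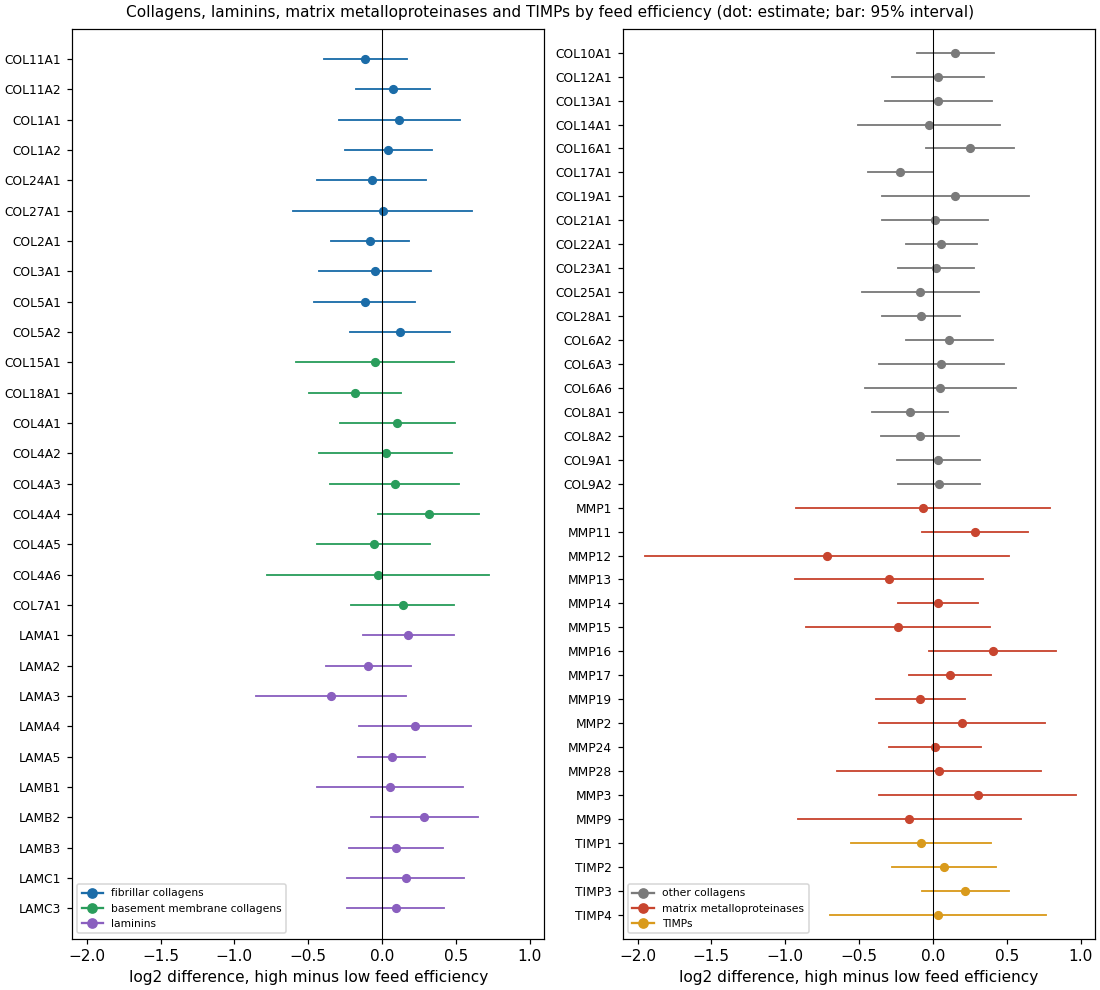
Difference between high and low feed efficiency pigs (log2, high minus low) for each of the 66 genes, coloured by family, with dots for the estimate and bars for the 95% interval. Most intervals hold 0 near their middle, COL17A1's ends next to 0 and MMP12 has the widest.

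Fibrillar collagens were split 5 to 5, with a median difference of -0.02. COL1A1, the main chain of type I collagen, had a lowest, median and highest value of 10.98, 11.10 and 11.43 in high feed efficiency pigs, against 10.15, 11.07 and 11.72 in low feed efficiency pigs. The low feed efficiency group thus held both the lowest and the highest pig, and the medians almost met. Its difference was 0.12 ± 0.19 (SE), with a 95% interval of -0.29 to 0.53, and it ranged from -0.04 to 0.23 as each pig was left out in turn. COL1A2, the partner chain in the same trimer, had a difference of 0.04 ± 0.13. COL3A1, the type III chain that mixes with type I fibres in soft tissue, had values of 9.21, 9.73 and 10.08 in high feed efficiency pigs, against 9.31, 9.78 and 10.27 in low feed efficiency pigs. Its difference was -0.05 ± 0.17. COL5A1 and COL5A2, chains of type V collagen that nucleates type I fibrils, had differences of -0.12 ± 0.16 and 0.12 ± 0.16. The other COL5A1 probe sets ran the other way, at 0.17 ± 0.21, 0.13 ± 0.16 and 0.36 ± 0.19. COL11A1, a chain of the related type XI collagen known best from cartilage, had -0.11 ± 0.13. None of the fibrillar genes had groups that stood apart.

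Basement membrane collagens were higher in 5 and lower in 4, with a median of 0.02. Without high feed efficiency pig 1 the split was 8 to 1, with a median of 0.11. It was 4 to 5 without high feed efficiency pig 3, with a median of -0.02, and 4 to 5 without low feed efficiency pig 2, with a median of -0.01. COL4A1 and COL4A2, which form the type IV network found under nearly all epithelia and vessels, had differences of 0.10 ± 0.18 and 0.02 ± 0.21. COL4A1 had values of 6.66, 7.01 and 7.58 in high feed efficiency pigs, against 6.44, 7.03 and 7.35 in low feed efficiency pigs. COL4A4, a chain of the type IV network best known from the kidney glomerulus, had 3.15, 3.67 and 4.08 in high feed efficiency pigs, against 3.01, 3.35 and 3.80 in low feed efficiency pigs. In 5 of 6 high feed efficiency pigs it lay above the low group's median, with a difference of 0.32 ± 0.16 (limma, unadjusted p = 0.068). COL18A1, whose tail can be cut off as endostatin, had a difference of -0.18 ± 0.14. Its lowest value, 6.16, was that of high feed efficiency pig 1, and without this pig the difference was -0.09.

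Laminins were higher in 8 of 10 genes, with a median of 0.09. Without high feed efficiency pig 3 the count was 6 of 10, with a median of 0.05. LAMB2, the beta-2 chain of vessel, muscle and nerve basement membranes, had values of 5.84, 6.42 and 6.87 in high feed efficiency pigs, against 5.86, 6.08 and 6.33 in low feed efficiency pigs. Its lowest pig was in the high feed efficiency group, and so were its highest ones. The difference was 0.29 ± 0.17 (limma, unadjusted p = 0.113). LAMA4, the alpha chain of vessels and smooth muscle, was above the low group's median in 6 of 6 high feed efficiency pigs, at 7.50, 7.58 and 8.18, against 7.05, 7.36 and 7.99 in low feed efficiency pigs. Its difference was 0.22 ± 0.17. The pig at 8.18 was high feed efficiency pig 1, and without it the difference was 0.11. LAMA3, the alpha chain of the epithelial laminin that binds hemidesmosomes, ran the other way, at 6.67, 6.96 and 7.54 in high feed efficiency pigs, against 6.74, 7.35 and 8.10 in low feed efficiency pigs. Its difference was -0.35 ± 0.23, and it ranged from -0.48 to -0.17 as each pig was left out.

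The chains shared by most laminins had small differences. LAMA5, the alpha chain of adult epithelial and vessel laminins, had the smallest spread of all 66 genes, with an SD of 0.12 over the 12 pigs and a difference of 0.07 ± 0.10. LAMB1 and LAMC1, the beta-1 and gamma-1 chains, had differences of 0.05 ± 0.23 and 0.16 ± 0.18. LAMC1 had values of 7.45, 7.79 and 8.73 in high feed efficiency pigs, against 7.71, 7.73 and 7.86 in low feed efficiency pigs. The high feed efficiency pigs were the more scattered, and the value of 8.73 was that of pig 3, without which the difference was close to 0.

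Among the other collagens, 13 were higher and 6 lower, with a median of 0.04, and the split was 10 to 9 without high feed efficiency pig 3 or without low feed efficiency pig 2. COL17A1, a transmembrane collagen of hemidesmosomes that ties epithelial cells to the basement membrane, had the smallest unadjusted p of all 66 genes. It had a lowest, median and highest value of 6.96, 7.16 and 7.49 in high feed efficiency pigs, against 7.32, 7.39 and 7.64 in low feed efficiency pigs. All 3 high feed efficiency males and 1 of the females lay below every low feed efficiency pig, and 2 high feed efficiency females lay among them. The difference was -0.22 ± 0.10 (limma, unadjusted p = 0.051, adjusted p = 0.999), and it stayed between -0.26 and -0.19 whichever pig was left out. A second COL17A1 probe set, which correlated with the first at r = 0.80, gave -0.37 ± 0.14 (unadjusted p = 0.024). COL16A1, a collagen associated with fibrils, had 5.07, 5.42 and 5.86 in high feed efficiency pigs, against 5.05, 5.19 and 5.35 in low feed efficiency pigs. Its difference was 0.25 ± 0.14 (unadjusted p = 0.091). COL8A1, a short-chain collagen of vessel walls, had a difference of -0.16 ± 0.12.

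**Figure D2:**
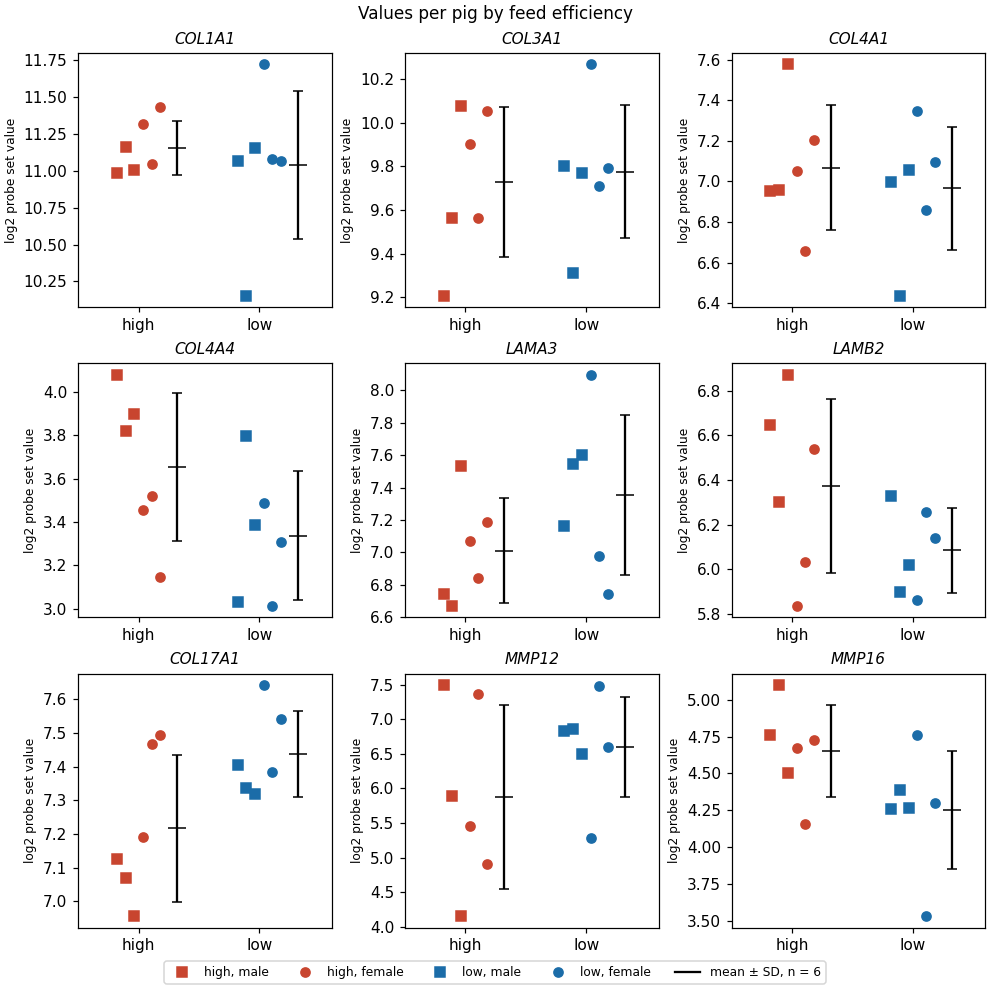
Log2 probe set values of 9 genes in each pig, with high feed efficiency pigs left and low feed efficiency pigs right, squares for males, circles for females and black bars for the mean ± SD. Every gene overlaps between the groups, and COL17A1 shows the 3 high feed efficiency males lowest.

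MMPs were higher in 8 and lower in 6, with a median of 0.03. The split was 5 to 9 without low feed efficiency pig 2 and 7 to 7 without high feed efficiency pig 3. It was 10 to 4 without high feed efficiency pig 1 and 9 to 5 without low feed efficiency pig 4. MMPs varied most between pigs. The median SD over the 12 pigs was 0.55 for MMPs, against 0.30 for all genes. MMP12, the macrophage elastase, had the largest SD, 1.09. It had values of 4.15, 5.67 and 7.50 in high feed efficiency pigs, against 5.29, 6.72 and 7.48 in low feed efficiency pigs, so that the high group held both ends of the range. Its difference was -0.72 ± 0.57, with a 95% interval of -1.95 to 0.52. MMP16, a membrane-bound MMP, had 4.16, 4.70 and 5.10 in high feed efficiency pigs, against 3.53, 4.28 and 4.76 in low feed efficiency pigs. In 5 of 6 high feed efficiency pigs it lay above the low group's median, with a difference of 0.40 ± 0.20 (limma, unadjusted p = 0.063), from 0.26 to 0.54 with each pig left out. MMP11, stromelysin-3 of stromal cells, had a difference of 0.28 ± 0.17.

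MMP2, the gelatinase of stromal cells, had 6.94, 7.78 and 8.20 in high feed efficiency pigs, against 6.36, 7.62 and 8.17 in low feed efficiency pigs. Its difference was 0.19 ± 0.26, and without low feed efficiency pig 2, the pig at 6.36, it was -0.01. MMP9, the gelatinase of neutrophils and macrophages, had 5.53, 5.92 and 7.61 in high feed efficiency pigs, against 5.50, 6.34 and 7.04 in low feed efficiency pigs. Its difference was -0.16 ± 0.35, and without high feed efficiency pig 6, the pig at 7.61, it was -0.44. MMP14, the membrane MMP that activates MMP2, had a difference of 0.04 ± 0.12. A second, dimmer MMP14 probe set gave -0.56 ± 0.29. MMP7, MMP20 and MMP27 lay below the filter, with mean log2 values of 2.32, 2.16 and 2.28 against the limit of 2.67. The genes just above it were MMP13 at 2.76, COL10A1 at 2.81 and COL28A1 at 2.89.

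TIMPs were higher in 3 and lower in 1. TIMP3, the inhibitor that stays bound to the matrix, had 8.16, 8.38 and 8.86 in high feed efficiency pigs, against 7.96, 8.27 and 8.39 in low feed efficiency pigs. Its difference was 0.22 ± 0.14 (limma, unadjusted p = 0.134). TIMP1, a soluble inhibitor that binds MMP9, lay below the low group's median in 6 of 6 high feed efficiency pigs, at 7.24, 8.15 and 8.39, against 7.0, 8.42 and 8.57 in low feed efficiency pigs. The lowest pig was in the low feed efficiency group, and the difference was -0.08 ± 0.22. TIMP2, the inhibitor that joins MMP14 and MMP2 in a complex, had a difference of 0.08 ± 0.16.

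Enterocyte markers were lower in high feed efficiency pigs in 9 of 9 genes, with a median of -0.45. Their mean level per pig ran from 8.08 to 10.57 in high feed efficiency pigs, against 9.89 to 10.86 in low feed efficiency pigs. Without high feed efficiency pig 1 they were lower in 6 of 9, with a median of -0.09. Smooth muscle markers were higher in 7 of 9, with a median of 0.23, at 7.96 to 9.41 in high feed efficiency pigs, against 8.17 to 8.76 in low feed efficiency pigs. Without high feed efficiency pig 3 they were higher in 5 of 9, with a median of 0.07. Macrophage markers were lower in 7 of 7, with a median of -0.13, and in 4 of 7 without high feed efficiency pig 1 or pig 3. B cell markers were higher in 7 of 7, with a median of 0.40, but in 1 of 7 without low feed efficiency pig 4, with a median of -0.23. Fibroblast markers were split 4 to 4, endothelial markers 5 to 5, neutrophil markers 3 to 5 and markers of enteric glia and neurons 3 to 2. Without low feed efficiency pig 2, fibroblast markers were split 1 to 7, with a median of -0.10, and endothelial markers 1 to 9, with a median of -0.12. Endothelial markers were also split 1 to 9 without high feed efficiency pig 3, with a median of -0.05. The part of these cell types in the differences of the matrix genes was not tested.

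The enzymes and partners of the matrix, in lists taken from their known roles, also gave 0 calls at an adjusted p of 0.05. Of 22 genes that make, fold or crosslink collagen, 9 were higher and 13 lower, with a median of -0.04. LOXL3, a lysyl oxidase that crosslinks collagen, had a difference of 0.32 ± 0.13, and TLL1, a protease that trims procollagen, had 0.28 ± 0.13. These were the 2 of 22 genes of this list at an unadjusted p under 0.05 in limma, against 2.19% of all genes. Of 19 basement membrane partners and receptors, 9 were higher and 10 lower, and 0 had such a p, with 4 higher and 15 lower without high feed efficiency pig 3. ITGA2 and ITGA3, integrin chains that bind collagen and laminin, had -0.29 ± 0.19 and -0.31 ± 0.22. Of 20 proteases and inhibitors outside the families, 9 were higher and 11 lower, with A2M, a broad protease inhibitor, at 0.27 ± 0.19 and ADAM17, a sheddase, at 0.18 ± 0.12. Of 17 genes of TGF-beta signalling, a known inducer of collagen genes, 13 were higher and 4 lower, with a median of 0.07. TGFBR3, a co-receptor, had 0.19 ± 0.14 and CTGF, a target gene, 0.16 ± 0.14.

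Between males and females, 0 of 66 matrix genes passed an adjusted p of 0.05 in limma, where 0.0329% of all probe sets passed. At an unadjusted p of 0.05, 5 of 66 passed, or 7.58%, against 20.3% of all genes. The sexes overlapped in 66 of 66 genes, against 2.43% of all genes with no overlap. The matrix genes were higher in males in 26 and lower in 40, with a median of -0.03, the same as that of all genes. Of the 6 females, 4 had pig identifiers of 317 to 324. The other 2, high feed efficiency pig 4 and low feed efficiency pig 4, shared the range of 301 to 310 with all 6 males. The meaning of the ranges is unknown. Values within the first range, where 8 pigs remain, are therefore given beside the main ones for the matrix families and genes named. They rest on these 2 females, of which low feed efficiency pig 4 stood apart in B cell markers. They come from the same arrays as the main values and are no independent check of them. Within-range values without low feed efficiency pig 4 are not given, since a single female would remain.

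TIMPs were lower in males in 4 of 4 genes, with a median of -0.42, and -0.58 within the first identifier range. Without high feed efficiency pig 1, or without low feed efficiency pig 4, the count was 3 of 4. TIMP3 hardly differed between the sexes, at -0.01 ± 0.14. TIMP1 had a lowest, median and highest value of 7.0, 7.88 and 8.43 in males, against 8.22, 8.40 and 8.57 in females. Females were tightly grouped and 5 of 6 males lay below the female median. Its difference, male minus female, was -0.64 ± 0.22 (limma, unadjusted p = 0.012, adjusted p = 0.157) and it was -0.64 ± 0.38 within the first range. TIMP2 lay below the female median in 6 of 6 males, with a difference of -0.32 ± 0.16 (unadjusted p = 0.073) and of -0.52 ± 0.25 within the first range. All 5 of its probe sets were lower in males, by differences of -0.73 to -0.32. TIMP4 had a difference of -0.52 ± 0.34, and of -0.88 ± 0.49 within the first range.

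MMPs were lower in males in 10 of 14 genes, with a median of -0.19, and -0.21 within the first range. MMP28, epilysin, an MMP of epithelia, had 2.98, 4.32 and 4.55 in males, against 3.93, 4.89 and 5.27 in females. It lay below the female median in 6 of 6 males, with a difference of -0.75 ± 0.32 (limma, unadjusted p = 0.035, adjusted p = 0.225) and of -1.21 ± 0.43 within the first range. MMP15, a membrane-bound MMP, had 5.81, 7.24 and 7.56 in males, against 7.22, 7.62 and 8.16 in females. Its difference was -0.61 ± 0.29 (unadjusted p = 0.055), and without high feed efficiency pig 1, the male at 5.81, it was -0.36. Within the first range it was -1.04 ± 0.43. MMP2 had a difference of -0.50 ± 0.26 (unadjusted p = 0.076), and of -0.78 ± 0.42 within the first range. The lowest male, at 6.36, was low feed efficiency pig 2, which the first range includes.

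Fibrillar collagens were lower in males in 8 of 10 genes, but the median was -0.02, and -0.20 within the first identifier range. Without high feed efficiency pig 3 the split was 5 to 5. COL1A1 had 10.15, 11.04 and 11.16 in males, against 11.05, 11.20 and 11.72 in females, and 6 of 6 males lay below the female median. Its difference was -0.36 ± 0.19 (limma, unadjusted p = 0.083), and without low feed efficiency pig 2, the male at 10.15, it was -0.20. Within the first range it was -0.60 ± 0.30. Of the 5 COL1A1 probe sets, 3 were lower in males, and differences over all 5 ran from -0.36 to 0.18. COL1A2 had a difference of -0.26 ± 0.13, also with 6 of 6 males below the female median, and of -0.42 ± 0.22 within the first range. COL5A2 ran the other way in 6 of 6 males, with a difference of 0.24 ± 0.16, and of 0.18 ± 0.25 within the first range. COL6A3, a chain of the beaded filaments of type VI collagen, had -0.39 ± 0.19, and -0.38 ± 0.30 within the first range. Of its 10 probe sets, 7 were lower in males, and differences over all 10 ran from -0.61 to 0.25. Other collagens, the family of COL6A3, were higher in males in 9 and lower in 10, with a median of -0.02. The median was -0.06 within the first range. COL25A1 was higher in males, at 0.39 ± 0.18 (limma, unadjusted p = 0.051), and 0.50 ± 0.29 within the first range.

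Laminins were higher in males in 8 of 10 genes, with a median of 0.07, and 0.10 within the first identifier range. The count was 6 of 10 without high feed efficiency pig 3. Basement membrane collagens were higher in 3 and lower in 6, with a median of -0.13, and -0.20 within the first range. LAMA2, the laminin alpha chain of muscle and nerve, had the smallest unadjusted p of all 66 genes in this comparison. It had 6.33, 6.49 and 6.53 in males, against 5.73, 6.01 and 6.53 in females, so that males were tightly grouped and 5 females lay below all of them. The difference was 0.41 ± 0.13 (limma, unadjusted p = 0.009, adjusted p = 0.144), and 0.65 ± 0.16 within the first identifier range. The other 2 LAMA2 probe sets had differences of 0.12 ± 0.17 and -0.02 ± 0.26. LAMB2 had 0.23 ± 0.17, and 0.49 ± 0.23 within the first range, and all 3 of its probe sets were higher in males. LAMB1 had 0.19 ± 0.23, and 0.08 ± 0.36 within the first range, and its second probe set had -0.09 ± 0.17. COL4A4 had 3.03, 3.81 and 4.08 in males, against 3.01, 3.38 and 3.52 in females. Its difference was 0.35 ± 0.16 (limma, unadjusted p = 0.048), and 0.20 ± 0.24 within the first range. COL18A1 had -0.18 ± 0.14, and -0.35 ± 0.22 within the first range. Its other 2 probe sets had 0.13 ± 0.11 and 0.01 ± 0.19. COL4A5 had -0.20 ± 0.18, and -0.30 ± 0.30 within the first range. COL17A1 was lower, at 6.96, 7.22 and 7.41 in males, against 7.19, 7.48 and 7.64 in females. Its difference was -0.25 ± 0.10 (unadjusted p = 0.029, adjusted p = 0.211), and it was -0.21 ± 0.16 within the first range.

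Fibroblast markers were lower in males in 6 of 8 genes, with a median of -0.30, at 7.67 to 8.47 in males, against 8.23 to 8.54 in females. Macrophage markers were lower in 6 of 7, with a median of -0.38, at 6.49 to 7.46 in males, against 7.16 to 7.52 in females. Enterocyte markers were lower in 7 of 9, with a median of -0.48, and of -0.18 without high feed efficiency pig 1. Their part in the lower TIMP, MMP and type I collagen values of males was not tested. Among the 22 genes of collagen synthesis and crosslinking, 19 were lower in males, with a median of -0.26, and the count was 17 without high feed efficiency pig 1 or without low feed efficiency pig 2. At an unadjusted p under 0.05, 4 of these were lower and 1 higher, or 5 of 22, against 20.3% of all genes. The 1 higher gene was ADAMTS14, a procollagen N-proteinase, with 0.55 ± 0.14 (limma, adjusted p = 0.105). TLL1 had -0.37 ± 0.13. Of 20 other proteases and inhibitors, 14 were lower, with FURIN, which activates membrane MMPs, at -0.64 ± 0.18 (adjusted p = 0.112) and ADAM17 at 0.31 ± 0.12. Of 19 basement membrane partners, 9 were higher and 10 lower, with ITGB4, the hemidesmosome integrin, at -0.62 ± 0.22 and ITGB1 at 0.47 ± 0.18. Of 17 TGF-beta genes, 9 were higher and 8 lower, with the receptor TGFBR1 at 0.58 ± 0.21 and its effector SMAD2 at 0.43 ± 0.15.

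**Figure D3:**
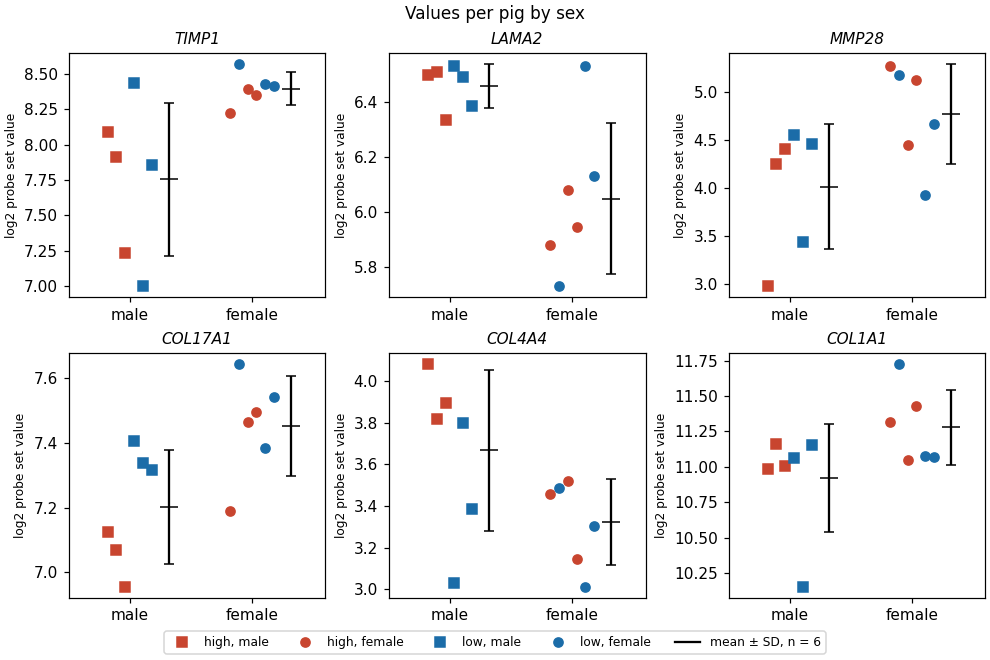
Log2 probe set values of 6 genes in each pig, with males left and females right, red for high and blue for low feed efficiency, and black bars for the mean ± SD. TIMP1, MMP28, COL17A1 and COL1A1 have their lowest pigs among males, and LAMA2 its lowest among females.

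The difference between high and low feed efficiency was itself compared between males and females. In limma, 0 of 66 genes passed an adjusted p of 0.05, as did 0% of all probe sets, and 1 of 66 passed an unadjusted p of 0.05, against 1.85% of all genes. This gene was COL7A1, the collagen of the anchoring fibrils below stratified epithelia. In males it had 4.79, 4.81 and 4.84 at high feed efficiency, against 4.03, 4.33 and 4.46 at low feed efficiency. In females it had 4.02, 4.31 and 4.45 at high feed efficiency, against 4.46, 4.50 and 4.61 at low feed efficiency. Groups thus stood apart in opposite directions, which 0.214% of all genes did, although in females the gap was narrow. The difference, high minus low, was 0.54 in males and -0.26 in females, and it differed between them by 0.80 ± 0.24 (limma, unadjusted p = 0.006, adjusted p = 0.9996). COL7A1 has 1 probe set, so no second one could be compared. COL28A1 and COL24A1 came next, with -0.46 ± 0.21 and -0.60 ± 0.31.

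The chains and enzymes that work together were then followed from pig to pig, in 21 relations over the 12 pigs, with p-values by permutation and adjusted over the 21 relations. COL4A1 and COL4A2, which form 1 trimer and are neighbours on chromosome 11 of the pig assembly Sscrofa11.1, had r = 0.92 (adjusted permutation p = 0.001) and Spearman rho = 0.96 (adjusted permutation p = 0.001). Without the 2 pigs farthest from the median, r was 0.95. It was 0.94 within high feed efficiency pigs and 0.93 within low feed efficiency pigs, 0.98 within males and 0.97 within females. This was the 1 relation of 21 that passed by both measures, while 9 passed by Pearson's r.

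COL1A1 and COL1A2 had r = 0.95 (adjusted permutation p = 0.002), but rho = 0.62 (adjusted permutation p = 0.132), and r was 0.66 without low feed efficiency pigs 2 and 4. The plot of partner genes shows these pigs at both ends and the others in a cluster. Type I collagen also went with COL3A1 at r = 0.72 (adjusted permutation p = 0.018, rho = 0.57 with adjusted permutation p = 0.168), and at 0.51 without the same pigs. COL5A1 and COL5A2, chains of 1 trimer, had r = -0.45 (adjusted permutation p = 0.220, rho = -0.33 with adjusted permutation p = 0.481). The 4 probe sets of COL5A1 correlated poorly with each other, with a median r of -0.24, against 0.85 for the pair of COL5A2.

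Other neighbouring chains of type IV collagen, and a pair of type VI, were followed as well. COL4A3 and COL4A4, which are neighbours on chromosome 15, had r = 0.04 (adjusted permutation p = 0.939, rho = 0.01 with adjusted permutation p = 0.974). COL4A5 and COL4A6, neighbours on chromosome X, had r = 0.32 (adjusted permutation p = 0.486, rho = -0.22 with adjusted permutation p = 0.657), and r = -0.40 without high feed efficiency pig 1. COL6A2 and COL6A3, a pair added after the values were seen, had r = 0.63 (adjusted permutation p = 0.051, rho = 0.48 with adjusted permutation p = 0.293).

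Laminin chains gave 1 relation by Pearson's r. LAMB1 and LAMC1 had r = 0.75 (adjusted permutation p = 0.025), with rho = 0.43 (adjusted permutation p = 0.324) and r = 0.49 without high feed efficiency pig 3 and low feed efficiency pig 2. It was 0.96 within high feed efficiency pigs and 0.03 within low feed efficiency pigs, where LAMC1 hardly varied. LAMA5 and LAMC1 had r = -0.02, and LAMA3 and LAMB3, of the epithelial laminin, had r = 0.19, with adjusted permutation p-values of 0.939 and 0.654 and rho of -0.15 and 0.10, with adjusted permutation p-values of 0.743 and 0.828.

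**Figure D4:**
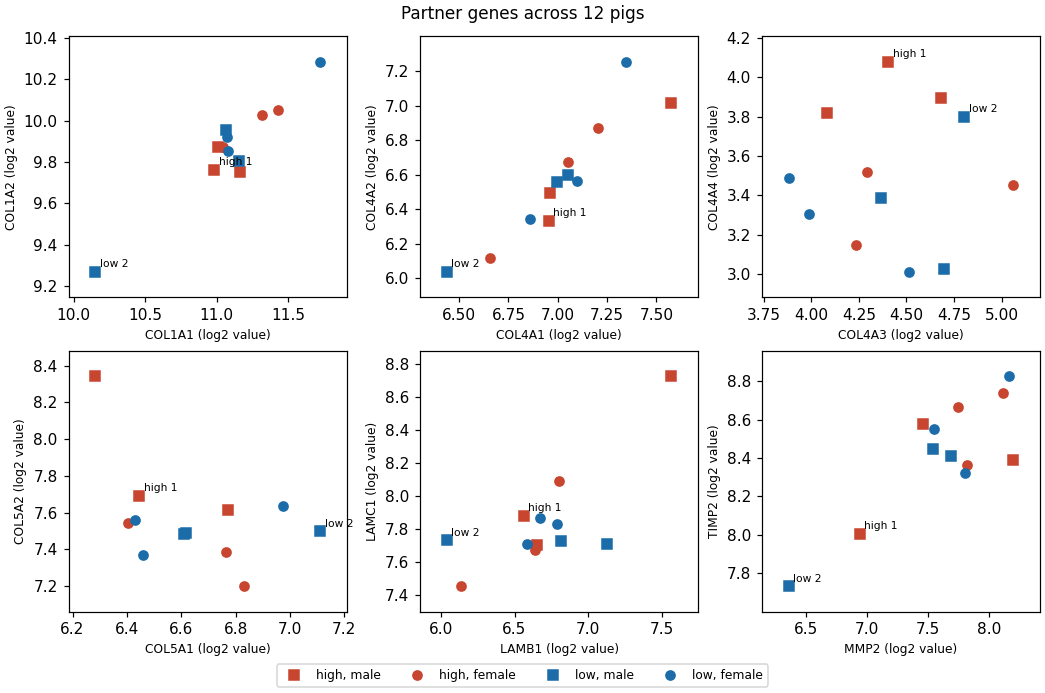
Log2 values of 6 pairs of partner genes over 12 pigs, the first gene of each pair on the x axis, red for high and blue for low feed efficiency, squares for males and circles for females. COL4A1 and COL4A2 form a line, COL1A1 and COL1A2 a cluster with low pig 2 far below it, and COL4A3 and COL4A4 a cloud.

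MMP2 had r = 0.83 with TIMP2 (adjusted permutation p = 0.009, rho = 0.43 with adjusted permutation p = 0.324), 0.79 with MMP14 (0.015, rho = 0.66 with adjusted permutation p = 0.094) and 0.79 with COL1A1 (0.017, rho = 0.38 with adjusted permutation p = 0.402). Without the 2 farthest pigs these values were 0.30, 0.35 and 0.27, where the pigs left out were high feed efficiency pig 1 and low feed efficiency pig 2 for TIMP2 and MMP14, and low feed efficiency pigs 2 and 4 for COL1A1. They were 0.80, 0.80 and 0.82 without high feed efficiency pig 1 alone. MMP9 and TIMP1 had r = 0.61 (adjusted permutation p = 0.067), rho = 0.69 (adjusted permutation p = 0.088) and 0.69 without the farthest pigs. MMP1 and TIMP1 had r = 0.14 (adjusted permutation p = 0.733, rho = 0.08 with adjusted permutation p = 0.857).

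Set against marker scores, COL1A1 had r = 0.83 with the fibroblast score (adjusted permutation p = 0.007), with rho = 0.72 (adjusted permutation p = 0.088) and 0.69 without the 2 farthest pigs. Its r with the smooth muscle score was 0.17 (adjusted permutation p = 0.654, rho = 0.28 with adjusted permutation p = 0.568). LAMA3 had r = 0.66 with the enterocyte score (adjusted permutation p = 0.048, rho = 0.70 with adjusted permutation p = 0.088), and 0.54 without the 2 farthest pigs. COL4A1 had r = 0.51 with the endothelial score (adjusted permutation p = 0.152, rho = 0.54 with adjusted permutation p = 0.198). MMP9 had r = 0.27 with the neutrophil score and MMP12 r = 0.22 with the macrophage score, with adjusted permutation p-values of 0.549 and 0.646 and rho of 0.20 and 0.22, with adjusted permutation p-values of 0.674 and 0.657.

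Other relations are described without a test, since they were picked for their size after the values were seen, and all share the same 12 arrays. MMP15 and MMP28 had r = 0.94 and 0.91 without the 2 farthest pigs, and MMP15 had r = 0.93 with the enterocyte score and 0.80 without high feed efficiency pig 1. COL18A1 had r = 0.88 with the enterocyte score and 0.68 without that pig. LAMC1, TIMP3 and COL5A2 had r of 0.91, 0.90 and 0.85 with the smooth muscle score, and 0.76, 0.78 and 0.57 without high feed efficiency pig 3, whose score was 0.92. MMP12 had r = -0.88 with this score and -0.82 without that pig. COL14A1, a collagen that binds fibrils, and TIMP2 had r of 0.93 and 0.86 with the fibroblast score. Low feed efficiency pig 2 and high feed efficiency pig 1 were lowest in both genes and in this score, at scores of -0.56 and -0.30. TIMP1 had r = 0.85 with the macrophage score and 0.94 without high feed efficiency pig 1. The 2 pigs lowest in TIMP1, low feed efficiency pig 2 and high feed efficiency pig 3, also had the lowest macrophage scores, -0.65 and -0.55. MMP1, interstitial collagenase, and its neighbour on chromosome 9 MMP3, stromelysin-1, had r = 0.84, also without the 2 farthest pigs, while MMP3 and its other neighbour MMP12 had r = -0.60, and -0.39 without the 2 farthest pigs.

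**Figure D5:**
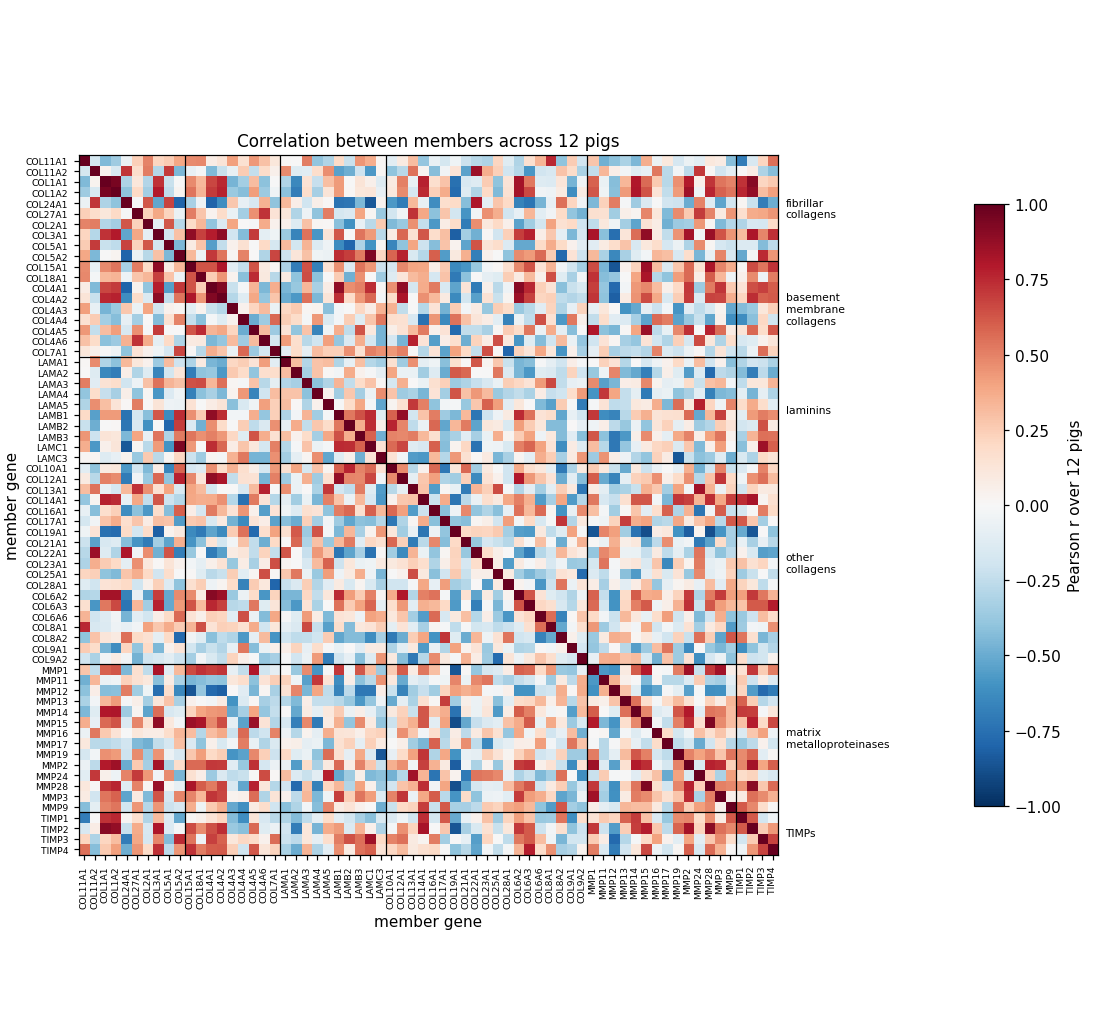
Pearson correlation over 12 pigs between each pair of the 66 genes, ordered by family with black lines between families, red for positive and blue for negative values. Families do not form solid red blocks, while COL1A1, COL1A2, COL3A1, COL4A1 and COL4A2 share red fields with MMP2, MMP14 and TIMP2.

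The median r between all pairs was 0.03 among the 66 genes, against 0.005 over all genes, and 13.5% of pairs had an r over 0.5, against 11.8%. Within families the median r was 0.34 among TIMPs, 0.10 among MMPs, 0.06 among basement membrane collagens, 0.04 among laminins, 0.03 among fibrillar collagens and -0.01 among other collagens. The share of pairs with an r over 0.5 was 33.3% among the 6 pairs of TIMPs, 19.8% among MMPs and 19.4% among basement membrane collagens. It was 11.1% among laminins, 20% among fibrillar collagens and 6.43% among other collagens. Without high feed efficiency pig 1 the share was 11.1% among basement membrane collagens, against 11.8% over all genes. It was then 15.6% among laminins, 22.2% among fibrillar collagens and 8.77% among other collagens, and unchanged among TIMPs and MMPs. The median SD over pigs was 0.55 for MMPs, 0.40 for TIMPs, 0.35 for basement membrane collagens, 0.29 for laminins, 0.26 for fibrillar collagens and 0.21 for other collagens, against 0.30 for all genes.

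Several genes had more than 1 probe set, and these often disagreed. In 39 genes with at least 2 probe sets above the filter, all pointed one way for feed efficiency in 12 genes and for sex in 18. The median over genes of the r between probe sets was 0.30, and it was over 0.5 in 11 genes. MMP2 and MMP15 had the closest probe sets, at 0.96 and 0.92, and COL24A1 and TIMP3 were among the farthest, at -0.49 and -0.39. COL6A3 had 10 probe sets with feed efficiency differences of -0.63 to 0.21. Of 137 probe sets of these genes above the filter, 2 had an unadjusted p under 0.05 for feed efficiency in limma, against 3.17% of all 33405 probe sets, and 20 for sex, against 19% of them, and 0 passed after adjustment.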

How the data were processed

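RNA of the ileal mucosa of 12 pigs was hybridised to 1-colour Affymetrix Snowball arrays. Per the labels' protocols, Qiazol RNA went through DNase, column clean-up, the Ambion WT Expression Kit and biotin labelling. The submitters' processing notes name GCOS 1.1.1. The deposited table holds log2 values of 47845 probe sets, a scale read from the values, which run from 0.30 to 14.24. Background correction, probe summary and normalization were not given in the sources used here, and no normalization was added, since the highest value is the same, 14.16, on 7 arrays. No scan date is given. The number of arrays limits precision.

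The 123 controls and the dimmest 30% of probe sets, under a mean of 2.67, were left out, which kept 33405. Genes were named through the platform annotation, and all 69 symbols are current in the Sscrofa11.1 gene table, used for names and neighbours alone. COL6A1, MMP8 and other family members without a named probe set were not analysed here. limma 3.58.1 in R 4.3.3 (lmFit, eBayes) fitted feed efficiency and sex, and a fit of the 4 group means gave the difference between the sexes, with Benjamini-Hochberg adjustment over all probe sets kept and a threshold of 0.05. The script was tested on simulated data. Intervals are 95% intervals of the limma fit. Correlations used 100000 permutations, two-sided. A marker score is the mean over a list of each gene's deviation from its mean over the pigs.

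The members and gene lists were chosen with earlier results of these data known. Genes named are, for feed efficiency and for sex, the 3 of smallest unadjusted p per family, for the difference between the sexes the 3 of smallest p, a set of main chains and enzymes, and 2 genes per pathway list. Other names were chosen after their values were seen. Alternatives were other filters, normalizations, variance models, covariates and probe set rules, each pig left out, each sex alone and 1 identifier range alone.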

Additional observations from a re-analysis of the deposited data

Results flagged for a closer look

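In 6 of 76 gene and group combinations tested, 1 pig lay far from the other 5 of its group, and chance gives about 1 in 20. COL11A1 was 3.4342 in low feed efficiency pig 2, where the nearest of the group had 3.1527. MMP2 was 6.3599 in the same pig, where the nearest had 7.5448. High feed efficiency pig 1 was lowest for COL18A1, at 6.1588 against 6.6702 in the nearest pig, and highest for LAMA4, at 8.1792 against 7.7046. MMP14 was 7.542 in high feed efficiency pig 5, where the nearest had 7.2663. MMP9 was 7.6107 in high feed efficiency pig 6, where the nearest had 6.209.

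COL7A1 stood out since high feed efficiency males lay above all low feed efficiency males while high feed efficiency females lay below all low feed efficiency females. The feed efficiency difference in males minus that in females was 0.8043 on the log2 scale, which did not pass the adjusted p in limma.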

How the results depend on the processing

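Under 25 other settings, 0 matrix genes passed the adjusted p in any comparison fitted under them. At an unadjusted p of 0.05 in limma, 5 passed for sex. The difference between the sexes was not fitted without the second term, with identifier range as a term or with probe sets averaged. It was also not fitted within range 301 to 310, and neither it nor sex was fitted in males alone or females alone. Of 1561 alternative values, 1505 kept their direction and their side of the threshold, or lay within 1 SD for medians. Of the 29 named gene results for feed efficiency, 16 turned sign under at least 1 setting, against 1 of 18 for sex. No feed efficiency difference named here was called, so each sign below is that of an uncalled value, and the cause of each turn was not tested. No paired analysis was possible because replicate numbers were given in accession order and pair no pigs.

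In the sex comparison the median of fibrillar collagens was -0.1459 with the lowest 50% of probe sets left out and -0.2044 both with identifier range as a term and within range 301 to 310. The median of other collagens was 0.0285 with array weights, 0.0331 when a gene's probe sets were averaged, 0.0375 without high pig 1 and low pig 2, a setting added after seeing the data, and -0.0396 to 0.0326 with each pig left out (0.0326 without high pig 1). COL4A5 was 0.0129 without the same 2 pigs. For feed efficiency, in females alone COL5A2 was -0.147, COL5A1 0.0448, COL7A1 -0.2631, COL1A1 -0.0255, COL1A2 -0.0344, COL4A1 -0.129, COL4A2 -0.1659, LAMB1 -0.1586, LAMC1 -0.0612 and MMP14 -0.0464. With the mean over probe sets COL5A1 was 0.1348, COL8A1 0.0404, COL3A1 0.0772, TIMP2 -0.0558 and MMP14 -0.2608. Without high pig 1 and low pig 2 COL1A1 was -0.026, COL1A2 -0.0474, COL4A2 -0.03, LAMB1 -0.0406 and MMP14 -0.0345. With array weights LAMB1 was -0.0168 and MMP9 0.0269, and with quantile normalization COL3A1 was 0.0122. With each pig left out, the ranges that crossed 0 were -0.0102 to 0.1911 for COL5A2, -0.0319 to 0.1418 for TIMP2, -0.2605 to 0.0582 for TIMP1, -0.041 to 0.2284 for COL1A1, -0.0566 to 0.1105 for COL1A2, -0.1542 to 0.0393 for COL3A1, -0.0151 to 0.1981 for COL4A1, -0.0856 to 0.1638 for COL4A2, -0.1125 to 0.164 for LAMB1, -0.0023 to 0.2495 for LAMC1, -0.0074 to 0.3111 for MMP2, -0.4417 to 0.0546 for MMP9 and -0.0478 to 0.0834 for MMP14. Of these, COL1A1, COL1A2, TIMP2, MMP2 and MMP14 turned without low pig 2 alone, and COL5A2 and LAMC1 without high pig 3 alone. Without high pig 1 the correlation of COL4A5 with COL4A6 was -0.3955 and that of LAMA3 with LAMB3 -0.0083.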
